A study of Homo sapiens with 3 samples.

Results

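HGC-27 is an established human cell line derived from an undifferentiated gastric carcinoma, and the library described here came from its culture that received a control siRNA. That library was chosen by its label and is 1 of 3 in the study. The other cultures received an siRNA against IRF3 or against YAP, and their levels are not described. Their values entered only where the deposited gene length was inferred. The control culture was at passage 6 and was harvested 48 h after transfection, as total RNA. The labels name no other allele or treatment for it. No untransfected culture and no second control culture is analysed here. Transfection and the control siRNA therefore belong to every value below, and their part cannot be told apart from the state of the cells. With 1 library there was no replicate, so no test between samples was made and no value has an error between cultures.

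The library held 13949401 counts over 50868 genes, of which 25094 had at least 1 count. A gene was called detected at or above 1 FPKM, the deposited fragment count scaled to gene length and library size. On that rule 11498 genes were detected, or 22.6% of all genes. Among the 19691 protein-coding genes 9744 were detected, or 49.5%, which is the share to hold beside each list of genes below. Nothing is read from the count of a list whose share lay near it, and such a list is described by its members. A total of 2892 coding genes reached 10 FPKM, 207 reached 100 FPKM and 10 reached 1000 FPKM. Detected coding genes had a median of 5.01 FPKM, and 3870 coding genes had 0 counts. The 100 genes of highest count held 21.9% of all counts, and the 100 of highest FPKM held 41.2% of the summed FPKM.

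**Figure D1:**
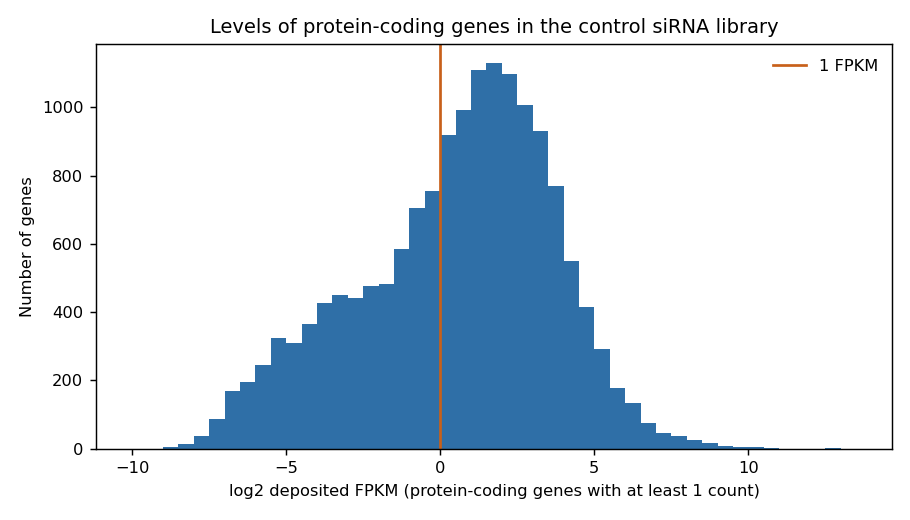
Number of protein-coding genes (vertical axis) by log2 deposited FPKM (horizontal axis) in the control library, for genes with at least 1 count. The line marks 1 FPKM, which 9744 of 19691 coding genes reached.

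The errors given are 95% Poisson intervals of the counts, put on the FPKM scale. Counts of PCR copies are not independent molecules, so intervals and limits cover counting error only. At 1000 counts the interval reaches 6.1% below and 6.4% above the value, at 100 counts 18.6% below and 21.6% above, and at 10 counts 52% below and 83.9% above. For genes named without an interval, the count or these widths give the precision. For a gene with 0 counts the limit given is 3 counts, which is tighter than the upper end of the interval used for other genes. For the mucin gene MUC5AC the limit is 0.0123 FPKM, and the upper end of the interval is 0.0152 FPKM.

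The gene length behind the deposited FPKM bears on every level. It equalled the sum of all distinct annotated exons of a gene, counted without merging those that overlap, within 1% for 89.8% of 28425 genes. GAPDH had a length of 6912 bases on that scale, in a gene that spans 4448 bases. For detected coding genes the deposited length was a median 2.85 times the length of the gene's own transcripts, with quartiles of 1.87 and 4.64. Deposited FPKM values are therefore lower for genes with many annotated exon variants. A second level, named here the transcript-length level, divides the same counts by the median length of a gene's annotated transcripts and is also in FPKM. It is given for each named gene called below detection on deposited FPKM that reaches 1 FPKM on this second scale, and for pairs whose ratio it moves by over 1.5 times or turns. Other orders of genes are those of deposited FPKM and can differ by transcript length. The annotated transcripts include short partial ones. Where these prevail, the median length is short and the transcript-length level is too high for the full-length RNA, as for ATM and MALAT1. Over all genes 13795 reach 1 FPKM on the transcript-length scale, against 11498 on deposited FPKM. The share of 49.5% therefore does not apply to counts of members by transcript length.

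Levels also moved with base composition. Among coding genes whose transcripts had at most 40% G and C, 36.2% were detected, with a median transcript-length level of 6.76 FPKM. Among those with more than 60% and up to 65%, 59.7% were detected, with a median of 21 FPKM. The part of this trend in the level of any single gene was not tested. Among low values, the G and C content is given for KRT8, KRT18, KRT19 and CENPE only.

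Genes of the translation apparatus were among the most abundant. The elongation factor EEF2, which moves the ribosome along the message, led the nuclear coding genes at 2026 FPKM (2016 to 2037, 151563 counts). The gene lies at chr19:3976056-3985469 on the minus strand of build hg38. All 79 cytoplasmic ribosomal protein genes were detected, with a median of 177 FPKM, and 56 of them reached 100 FPKM. Together they took 9.13% of all counts, and translation factors a further 2.81%. RPS12 stood highest at 985 FPKM, followed by RPS18 at 893 FPKM, RPS6 at 660 FPKM and RPL10A at 536 FPKM. The lowest was RPL9 at 4.17 FPKM, which is 31.9 FPKM by transcript length. Reads of ribosomal protein genes can be assigned to their pseudogene copies, described below, so the order within this family is uncertain. By transcript length the order changed: RPS18 stood at 5493 FPKM, RPLP1 at 4071 FPKM and RPS2 at 3986 FPKM, and 23 of the 30 highest coding genes were ribosomal protein genes, against 13 of 30 by deposited FPKM.

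Messages for ribosomal proteins and elongation factors are known for a start of a cytosine followed by a run of pyrimidines, the 5′ terminal oligopyrimidine or TOP motif, through which mTOR signalling controls their translation. Promoter windows from RefSeq (GRCh38.p14, 250 bases before and 50 bases after the annotated start) matched 14810 of 19624 coding genes by symbol. A TOP start was counted when the first base was C and the next 4 bases were C or T, on the gene's strand. It was found in 43 of 63 ribosomal protein genes with a window (68.3%), in 10 of 29 genes of the translation factor list, which includes TPT1 (34.5%), and in 4.69% of all windows. Of the 100 genes of highest transcript-length level 45 held it, and of the 100 of highest deposited FPKM 35 did.

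The starts of EEF2, of 3 ribosomal protein genes and of TPT1, which encodes the translationally controlled tumour protein, are shown because they carry this motif. Beside them stand 3 other abundant genes that do not and 1 stomach gene with the TATA box letters TATAAA. Each window holds 45 bases before and 10 bases from the annotated start, 5′ to 3′ on the gene's strand. Capitals mark the pyrimidine run from the start, or TATAAA where it falls between 40 and 16 bases before the start. EEF2 lies at chr19:3985454-3985508 (minus), RPS12 at chr6:132814524-132814578 (plus), RPS18 at chr6:33272030-33272084 (plus), RPLP1 at chr15:69452773-69452827 (plus) and TPT1 at chr13:45341174-45341228 (minus). TMSB10 lies at chr2:84905611-84905665 (plus), ENO1 at chr1:8878677-8878731 (minus), SCD at chr10:100347188-100347242 (plus) and PGC at chr6:41747388-41747442 (minus).
EEF2: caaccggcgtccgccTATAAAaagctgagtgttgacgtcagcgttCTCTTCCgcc
RPS12: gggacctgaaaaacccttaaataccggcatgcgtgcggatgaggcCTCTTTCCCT
RPS18: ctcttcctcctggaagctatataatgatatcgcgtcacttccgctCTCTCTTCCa
RPLP1: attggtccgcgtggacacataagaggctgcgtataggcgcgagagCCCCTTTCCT
TPT1: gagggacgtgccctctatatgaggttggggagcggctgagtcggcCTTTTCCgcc
TMSB10: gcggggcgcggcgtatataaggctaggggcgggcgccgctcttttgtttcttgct
ENO1: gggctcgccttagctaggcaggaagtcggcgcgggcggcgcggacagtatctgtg
SCD: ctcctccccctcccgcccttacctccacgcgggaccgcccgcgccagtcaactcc
PGC: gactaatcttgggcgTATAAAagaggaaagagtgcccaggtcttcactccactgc

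EEF2 held both motifs, and TMSB10, ENO1 and SCD held neither a TOP start nor TATAAA in these windows. Only the exact letters TATAAA were searched. Close variants, such as the tatataa in the windows of TMSB10 and RPS18, were not counted. TATAAA in the searched stretch, on the gene's strand, was found in 1.41% of windows of detected genes, in 9.6% of windows of genes with 0 counts and in 3.48% of all windows. The share did not simply fall with level. Of the 100 genes of highest deposited FPKM 7 held it, and of the 100 of highest transcript-length level 6 did. Among stomach products it was found in 6 of 23 windows (26.1%). The count of CG dinucleotides had a median of 27 per window of 300 bases in detected genes, 19 in genes with counts but below 1 FPKM, and 4 in genes with 0 counts. A match of letters is a description of the window and shows no use of the site.

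After EEF2, the most abundant nuclear coding genes spanned glycolysis, the cytoskeleton and lipid synthesis. GAPDH, a glycolytic enzyme, stood at 1488 FPKM (143454 counts), TMSB10, an actin-binding thymosin, at 1381 FPKM, and ENO1, enolase, at 1269 FPKM. SCD, the desaturase that makes monounsaturated fatty acids, stood at 1090 FPKM from 81552 counts. LGALS1 (galectin-1) had 798 FPKM and HSP90AB1 (a cytosolic chaperone) 665 FPKM. The iron store FTL stood at 611 FPKM, and the fibrillar collagen COL3A1 at 561 FPKM from 73241 counts, the seventh highest count of all genes. Further down were CKS2, a partner of cyclin-dependent kinases (542 FPKM), the intermediate filament VIM (511 FPKM), the stress-induced mTOR inhibitor DDIT4 (490 FPKM) and the tubulin TUBB (488 FPKM). By transcript length GAPDH came first at 8041 FPKM, and 13 genes were among the 30 highest on both scales.

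Processed pseudogenes, copies of messages inserted back into the genome, filled the top of the deposited list. Of the 30 genes of highest FPKM with at least 100 counts, leaving out mitochondrial and small RNA genes, 23 were processed pseudogenes and 7 were coding genes. EEF1A1P5 stood at 5344 FPKM from 103550 counts, while its parent EEF1A1, the elongation factor that brings transfer RNA to the ribosome, stood at 249 FPKM from 44626 counts. RPL18AP3 (4812 FPKM), RPS2P5 (3228 FPKM) and RPL13AP5 (2935 FPKM) followed. Processed pseudogenes took 4.86% of all counts, and those named for ribosomal proteins 2.36%. Reads of a parent and a near-identical copy can be assigned to either, and the handling of such reads was not given in the sources used here. Levels of these parents are therefore uncertain: with its pseudogenes added, EEF1A1 stood 12.2 times above its paralogue EEF1A2 by transcript length, against 3.33 times without them and 0.889 times (0.868 to 0.911) on deposited FPKM. EEF1A2, best known from muscle and brain, stood at 280 FPKM. Of the 38 genes of the translation factor list 37 were detected, with EEF1G, a subunit of the elongation factor complex, at 480 FPKM. The cap-binding EIF4E was below detection at 0.604 FPKM, or 8.68 FPKM by transcript length.

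Of the 13 proteins encoded by mitochondrial DNA, all parts of the respiratory chain, 9 were detected. MT-CO1 had the highest count of any gene, 157695, at 7331 FPKM. MT-ND2, MT-ND3, MT-ND5 and MT-CYB stood between 1096 and 1514 FPKM, and MT-ND6 at 961 FPKM. MT-CO2 stood at 65.5 FPKM and MT-ND1 at 11.3 FPKM. MT-ATP6 and MT-CO3 had 1 count each, and MT-ND4 and MT-ATP8 had 0. These genes are made from shared precursor RNAs, and several have nuclear copies or share bases with a neighbour, so their deposited counts are uncertain as levels. Mitochondrial coding genes held 1.73% of all counts.

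Lineage was read from lists of marker genes, which were chosen with earlier results of these data known. Epithelial cells are known for the keratins KRT8 and KRT18, E-cadherin and tight junctions, whereas mesenchymal cells carry vimentin and lay down fibrillar collagen. The shift from the former state to the latter, the epithelial-mesenchymal transition (EMT), is driven by SNAIL, TWIST, ZEB and PRRX factors and is well known in poorly differentiated gastric cancer.

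Mesenchymal genes were detected in 20 of 28, with a median of 8.87 FPKM. LGALS1 and VIM led the list. IGFBP7, an insulin-like growth factor binding protein, stood at 132 FPKM, the calcium-binding S100A4 at 98.3 FPKM and the proteoglycan BGN at 80.6 FPKM. The caveolar protein PTRF (79.1 FPKM), the matrix protein SPARC (59.5 FPKM) and the calponin CNN2 (43.6 FPKM) followed. Fibronectin (FN1) stood at 9.33 FPKM, or 36.1 FPKM by transcript length. Not all of the list was present. N-cadherin (CDH2) had 5 counts, CDH11 had 4, TGFBI had 2 and the ecto-nucleotidase NT5E had 11. TAGLN, an actin-bundling protein, stood at 0.689 FPKM, or 4.97 FPKM by transcript length. S100A6 had 16 counts (0.568 FPKM, or 1.7 FPKM by transcript length), and its level was 0.00578 times that of S100A4 (0.0033 to 0.0094). TAGLN and S100A6 each share exon bases with another annotated gene, so their counts are uncertain beyond the interval.

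Fibroblast genes were detected in 14 of 20, with a median of 8.93 FPKM. COL3A1 (chr2:188974320-189012746) stood at 561 FPKM (557 to 565), and COL1A1, the main chain of type I collagen, at 266 FPKM (263 to 268). FBLN1, an elastic-fibre protein, had 66.4 FPKM, and the small proteoglycans LUM and DCN had 19 and 16 FPKM. By transcript length LUM stood at 30.3 FPKM and DCN at 307 FPKM, so their order turned. COL6A1 (55 FPKM) and COL6A2 (52.9 FPKM) had a ratio of 1.04 (1 to 1.08), which turned to 0.873 (0.842 to 0.906) by transcript length. The lysyl oxidase LOX, which cross-links collagen, stood at 16.7 FPKM. Below detection were the fibroblast protease FAP (0.426 FPKM, 58 counts, or 1.6 FPKM by transcript length), COL6A3 (0.237 FPKM), PDPN (6 counts), MFAP5 (6 counts), DPT (0.883 FPKM) and the mesodermal factor TCF21 (0 counts).

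EMT regulators were unequal. PRRX2 stood at 85.6 FPKM (81.4 to 90) and TWIST1 at 83.3 FPKM (80.4 to 86.2), against 85.6 and 137 FPKM by transcript length. Then came SNAI1 at 28.8 FPKM, TCF3 at 16.2 FPKM and SNAI2 at 10.7 FPKM. PRRX1 stood at 5.71 FPKM and SNAI3 at 2.44 FPKM, which made 7 detected of 12. ZEB1 (0.491 FPKM, 137 counts) and ZEB2 (0.361 FPKM, 206 counts) were below detection on deposited FPKM. By transcript length they stood at 1.81 and 2.86 FPKM, and TCF4 at 7.39 FPKM. TWIST2 and FOXC2 had 2 counts and 1 count.

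Epithelial markers were scarce. Of 44 genes 9 were detected, 29 had counts but stayed below 1 FPKM and 6 had 0 counts, with a list median of 0.119 FPKM. All 9 were cell junction or surface genes. The desmosomal cadherin DSG2 led at 9.92 FPKM (9.28 to 10.6), with the tight-junction proteins TJP3 at 6.36 FPKM and CGN at 5.95 FPKM, the adhesion molecule F11R at 3.55 FPKM and desmoplakin DSP at 2.88 FPKM. TJP1, CLDN7, the mucin MUC1 and P-cadherin CDH3 stood between 1.09 and 2.28 FPKM. By transcript length 16 of 44 passed 1 FPKM.

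KRT18, KRT19 and E-cadherin were near 0, whereas KRT8 was below 1 FPKM on the deposited scale only. KRT8 (chr12:52897187-52949954) had 80 counts and 0.403 FPKM (0.32 to 0.501), or 3.05 FPKM by transcript length. KRT18 had 7 counts, KRT19 had 3 and KRT20 had 1. E-cadherin, CDH1, had 6 counts (0.0297 FPKM, 0.0109 to 0.0647) and EPCAM had 5 counts. VIM stood 1269 times above KRT8 (1019 to 1600), or 912 times by transcript length. Pseudogenes of KRT8 and KRT18 held 38 and 11 counts, and VIM stood 618 times above KRT8 by transcript length with them added. The transcripts of KRT8, KRT18 and KRT19 hold 58.6%, 58.5% and 61.8% G and C, and the part of base composition in their levels was not tested. KRT8 and KRT18 share exon bases, so their counts cannot be fully separated. The epithelial splicing factors ESRP1 and ESRP2 had 4 and 3 counts, and GRHL2, a keeper of the epithelial state, had 3.

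No stomach product was detected among 33 genes, and 19 had 0 counts. These 33 genes held 77 counts together. The mucins MUC5AC and MUC6, the trefoil peptides TFF1, TFF2 and TFF3, and the gastrokines GKN1 and GKN2 were all at 0. At 0 counts, the 3-count limit allowed up to 0.0123 FPKM for MUC5AC and up to 0.39 FPKM for TFF1. The highest was the surface antigen PSCA at 0.987 FPKM (0.712 to 1.33, 42 counts), which is 3.83 FPKM by transcript length and the single member above 1 FPKM on that scale. It was followed by gastrin (GAST) with 1 count and MUC13 with 7. The acid pump subunit ATP4A had 5 counts and its partner ATP4B had 0. The intestinal cadherin CDH17 had 1 count and villin VIL1 had 4.

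Regulators of gut identity were detected in 7 of 24. KLF5 stood at 6.03 FPKM, GATA6 at 4.5 FPKM, the intestinal homeobox factor CDX2 at 2.99 FPKM (187 counts), GATA4 at 2.65 FPKM and KLF4 at 2.38 FPKM. SOX9 (1.2 FPKM) and PDX1 (1.12 FPKM) were just above the threshold, and FOXA2 (0.751 FPKM) and FOXA1 (0.677 FPKM) just below. FOXA1 stood at 1.5 FPKM by transcript length. HNF4A, a main driver of gut epithelial genes, had 6 counts and SOX2 had 7. GATA6 stood 1.69 times above GATA4 on deposited FPKM and 0.602 times by transcript length, so their order depended on the length used. The label names gastric cancer cells. In these messages 9 of 44 epithelial genes and none of 33 stomach products were detected, against 20 of 28 mesenchymal and 14 of 20 fibroblast genes.

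**Figure D2:**
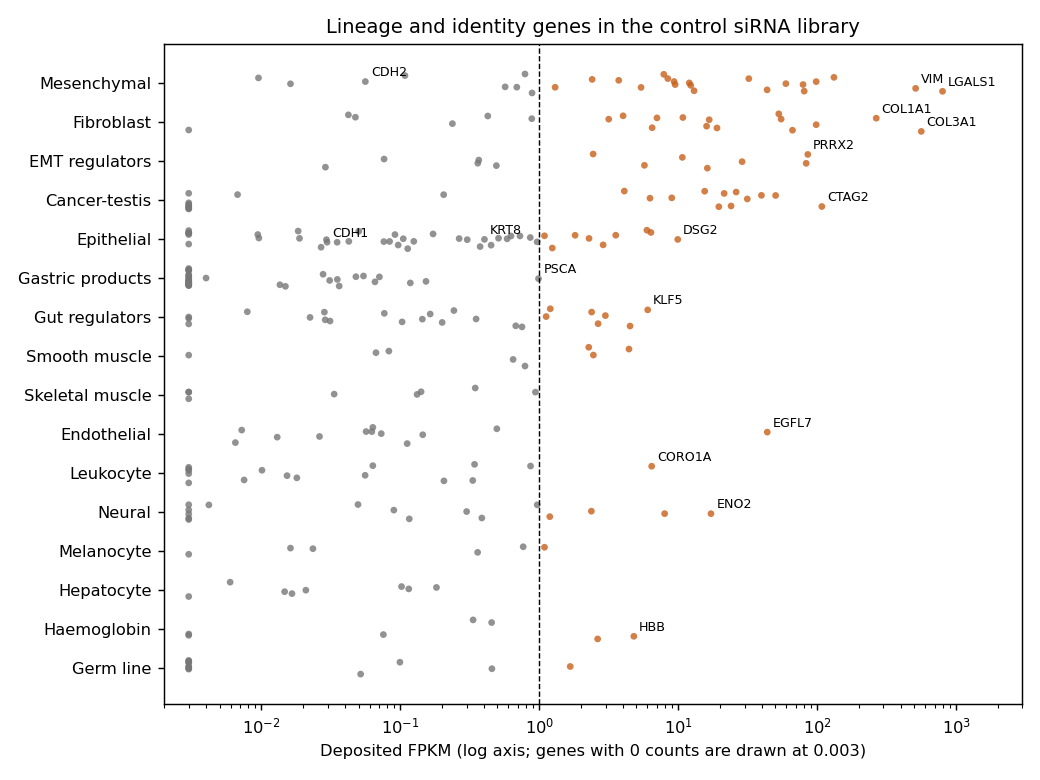
Deposited FPKM (horizontal log axis) of each member of 16 lists of lineage and identity genes (rows), with 1 point per gene and detected genes in orange. Mesenchymal genes reach 798 FPKM (LGALS1) and fibroblast genes 561 FPKM (COL3A1). The highest epithelial gene, DSG2, stands at 9.92 FPKM, and no stomach product reaches the dashed line at 1 FPKM.

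Markers of 9 other lineages were mostly below detection. Of 93 genes 13 were detected, 26 had 0 counts and the median was 0.0624 FPKM. By transcript length 25 passed 1 FPKM. Among them EGFL7, an endothelial-secreted factor, stood at 43.7 FPKM, while the other 11 endothelial genes, PECAM1, CDH5 and VWF included, were below 1 FPKM. The actin regulator CORO1A (6.44 FPKM) was the detected leukocyte gene of 16, and PTPRC had 1 count. Neural genes were detected in 4 of 16: the enolase ENO2 at 17.2 FPKM, the tubulin TUBB3 at 7.98 FPKM, the adhesion molecule NCAM1 at 2.37 FPKM and INSM1 at 1.19 FPKM. Smooth-muscle genes were detected in 3 of 8 (SMTN, DES and LMOD1, at 2.27 to 4.42 FPKM), or 5 of 8 by transcript length. CNN1 stood at 0.789 FPKM and SYNPO2 at 0.648 FPKM, or 3.25 and 3.54 FPKM by transcript length. MYH11 stood at 0.0827 FPKM and MYOCD at 0. The muscle stem-cell factor PAX7 stood at 0.938 FPKM, or 3.11 FPKM by transcript length, and MYOD1 and MYF5 had 0 counts. HBB stood at 4.79 FPKM (168 counts) and HBA1 at 2.63 FPKM. HBA1 and HBA2 are near-identical copies, so the split between them is uncertain. No liver marker of 8 was detected, and in the germ-line and pluripotency list 1 of 12 was, UTF1 at 1.67 FPKM from 27 counts.

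Collagen chains differed widely in level. Of 43 collagen genes 18 were detected, and the list held 1.22% of all counts. After COL3A1 and COL1A1 came COL6A1, COL5A1 (53 FPKM), COL6A2, COL5A2 (52.7 FPKM), COL11A1 (28.4 FPKM) and COL9A3 (25 FPKM). The type I chains were unequal: COL1A1 stood 40.9 times above COL1A2 (38.9 to 43.1), or 23.7 times by transcript length, although the type I fibril contains both. The basement-membrane chains COL4A1 and COL4A2 had 4 and 5 counts, and COL4A5 stood at 5.18 FPKM. COL17A1, a component of epithelial hemidesmosomes, had 1 count.

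Of 57 other matrix genes 37 were detected. PCOLCE, an enhancer of procollagen processing, stood at 105 FPKM, the membrane protease MMP14 at 72.7 FPKM and the proteoglycan AGRN at 64.5 FPKM. Laminin chains found in many basement membranes were present, with LAMC1 at 56.4 FPKM, LAMA5 at 43 FPKM and LAMB1 at 32.7 FPKM. Among chains of the laminin of epithelial hemidesmosomes, LAMA3 stood at 1.78 FPKM (418 counts) and LAMB3 had 8 counts. Both were named after their values were seen. The proteases MMP1, MMP3, MMP7, MMP10 and MMP13 had 0 counts, and TIMP2, an inhibitor of this family, stood at 44.2 FPKM.

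Receptor tyrosine kinases (RTKs) carry growth-factor signals across the membrane, and several are drug targets in gastric cancer. Of 58 genes 32 were detected, 36 by transcript length. PTK7, a catalytically inactive Wnt co-receptor, led at 33.6 FPKM (32.8 to 34.3) and 159 FPKM by transcript length. FGFR3 (19.5 FPKM), the ephrin receptor EPHB4 (18.7 FPKM), FGFR4 (17.3 FPKM), the Wnt5a receptor ROR2 (11.4 FPKM), EPHB3 (10.3 FPKM), EPHA2 (9.97 FPKM) and AXL (8.41 FPKM) followed. The intervals of FGFR3 (18.8 to 20.3) and EPHB4 (18 to 19.5) overlapped, as did those of EPHB3 and EPHA2.

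The receptors targeted in gastric cancer were low to moderate. ERBB2 stood at 7.19 FPKM (1762 counts), the HGF receptor MET at 2.04 FPKM (294 counts) and FGFR2 at 1.63 FPKM (467 counts). EGFR stood at 0.44 FPKM (0.361 to 0.532), or 2 FPKM by transcript length. MET stood 4.63 times above EGFR (3.7 to 5.83), or 2.28 times by transcript length. FGFR1 had 20 counts, 0.0235 times the level of FGFR2, and KIT had 3. ERBB2 and KIT were named after their values were seen. MST1R, EPHA10 and ROS1 had 0 counts.

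**Figure D3:**
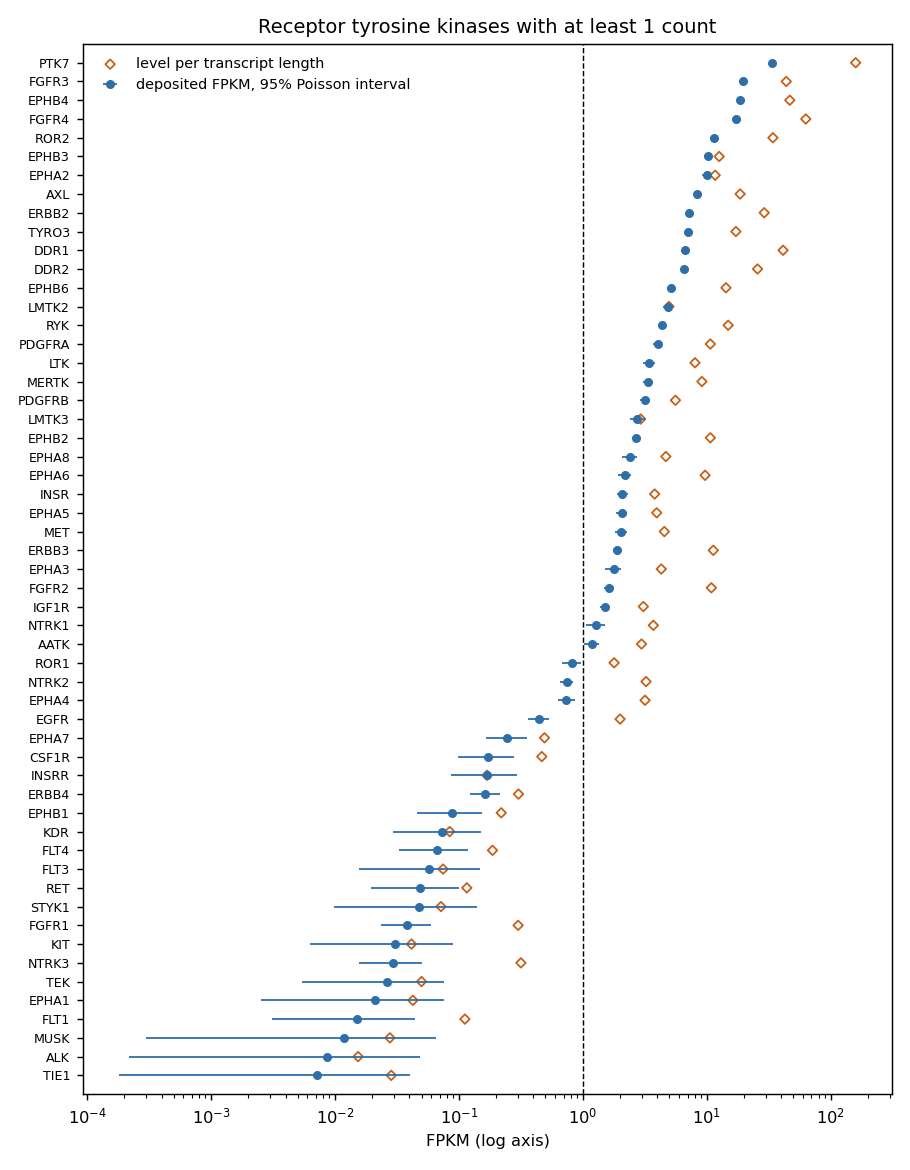
Level (horizontal log axis, FPKM) of the 55 receptor tyrosine kinases with at least 1 count (rows), with filled points and bars for deposited FPKM and its 95% Poisson interval and open diamonds for the transcript-length level. PTK7 stands highest on both scales (33.6 and 159 FPKM), and genes from ROR1 downward fall below 1 deposited FPKM.

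Of 54 RTK ligands 22 were detected. The ephrin EFNB1 stood at 51.8 FPKM, the heparin-binding factor MDK at 30.5 FPKM (201 FPKM by transcript length), EFNA3 at 27.3 FPKM and EFNB3 at 23.9 FPKM. VEGFB, a vascular growth factor, had 21 FPKM, EFNA2 and EFNA4 had 16.1 and 11.4 FPKM, and EFNA1 had 11.3 FPKM. Ephrins were thus 6 of the 8 highest ligands. The fetal growth factor IGF2 stood at 4.56 FPKM. Its ratio to IGF1, which had 3 counts, was 344 (117 to 1670), or 51.1 by transcript length. EREG, EPGN, NRG3, FGF10, GDNF and PTN had 0 counts.

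TGF-beta family ligands and binding proteins were detected in 23 of 36. TGFB1 stood at 52.6 FPKM, its latency protein LTBP1 at 29 FPKM and the follistatin-like FSTL1 at 28.6 FPKM. GDF11 (25.2 FPKM), LTBP4 (19.3 FPKM), the BMP antagonist NOG (16.1 FPKM), BMP7 (15.7 FPKM) and FSTL3 (15.5 FPKM) followed, and BMP6 had 0 counts. On the receptor side 6 of 14 were detected: endoglin ENG (13 FPKM), ACVR1B (6.28 FPKM), BMPR2, BMPR1A, ACVR1 and TGFBR1 (1.78 FPKM). TGFBR2, the ligand-binding TGF-beta receptor, stood at 0.23 FPKM from 25 counts, and 0.389 FPKM by transcript length. All 8 SMAD genes, the signal carriers of this pathway, were detected. SMAD3 led at 6.68 FPKM, 4.13 times above SMAD2 (3.82 to 4.47) or 6.37 times by transcript length, and SMAD1 was lowest at 1.18 FPKM.

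Wnt receptors were detected in 13 of 21. The frizzled receptors FZD2 (41.6 FPKM), FZD7 (29.5 FPKM) and FZD1 (16.9 FPKM) and the co-receptor LRP5 (14.6 FPKM) led with PTK7 and ROR2. LGR5, the intestinal and gastric stem-cell receptor, had 0 counts, while LGR4 stood at 8.6 FPKM. Of 33 Wnt ligands and secreted modulators 14 were detected, and WNT6 (32.3 FPKM) and WNT11 (24.9 FPKM) stood well above the next, the antagonist SFRP4 at 8.82 FPKM. WNT10B (4.36 FPKM) and the antagonist DKK1 (3.65 FPKM) followed, and WNT1, WNT8A and WNT16 had 0 counts.

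Notch genes were detected in 12 of 14. NOTCH3 stood at 57 FPKM (55.8 to 58.3), the ligand JAG2 at 24.9 FPKM and the target HES4 at 14.7 FPKM. NOTCH2 (10.9 FPKM) and NOTCH1 (10.8 FPKM) did not differ on deposited FPKM, with a ratio of 1.01 (0.956 to 1.08), but NOTCH2 stood 3.99 times above NOTCH1 by transcript length. The target HEY2 had 8.74 FPKM, and HES1 had 7.37 FPKM. DLL3 (0.459 FPKM) and NOTCH4 (3 counts) were below detection. In the hedgehog pathway 9 of 14 were detected: the co-receptor GAS1 at 19 FPKM, the inhibitor SUFU at 15.6 FPKM, the transducer SMO at 13.4 FPKM and the effector GLI3 at 9.82 FPKM. GLI1, itself a target of the pathway, stood at 2.57 FPKM. The ligands SHH, IHH and DHH had 2 counts each.

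Integrins, which bind cells to matrix, were detected in 9 of 26. ITGA5 and ITGB1, the fibronectin receptor pair, stood at 33.7 and 16.3 FPKM, and ITGB5 at 9.34 FPKM. ITGA3, ITGA7, ITGA4, ITGAV and ITGA6 stood between 2.08 and 4.39 FPKM, and ITGAE was the lowest detected at 1.67 FPKM. ITGB4, the hemidesmosome subunit of epithelia, stood at 0.413 FPKM, 39.6 times below ITGB1 (30.5 to 52.3) or 63.5 times by transcript length, and ITGB6 had 0 counts.

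Cytokine receptors were detected in 20 of 36. The low-affinity neurotrophin receptor NGFR stood at 33.4 FPKM and the interleukin-11 receptor IL11RA at 25.9 FPKM. The TNF receptor TNFRSF1A (14.9 FPKM), IFNGR2 (12.8 FPKM), TNFRSF12A (12.8 FPKM), IL10RB (12.4 FPKM) and the death receptor TNFRSF10B (11 FPKM) followed. IL6ST, the shared signalling chain of the interleukin-6 family, stood at 0.593 FPKM and at 6.18 FPKM by transcript length. The cytokines themselves were few: 6 of 31 were detected, led by the macrophage factor MIF at 355 FPKM. The chemokine receptor CXCR4 stood at 4.18 FPKM and CCL2 at 3.95 FPKM, and 14 genes had 0 counts, IL1A, IL1B, CXCL8 and CXCL1 included.

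Among surface proteins used as antibody or cell-therapy targets 12 of 22 were detected. The folate receptor FOLR1 stood at 24.2 FPKM (22.7 to 25.8), mesothelin MSLN at 16.6 FPKM, CD276 (B7-H3) at 15.6 FPKM, GPNMB at 10.6 FPKM and CDH6 at 10.3 FPKM. CLDN18, a tight-junction claudin of the stomach, had 0 counts, which allows up to 0.0258 FPKM on the 3-count limit. CEACAM5 had 0 counts too.

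Among transcription factors, the most posterior HOX genes were all present. HOX genes specify position along the body axis, with higher group numbers used further back, and 20 of 39 were detected. HOXC13 stood at 20.3 FPKM, HOXC10 at 19.1 FPKM, HOXB9 at 18.3 FPKM, HOXD13 at 15.8 FPKM, HOXB13 at 15.7 FPKM and HOXA13 at 13.1 FPKM. Group 13, the most posterior, was above 10 FPKM in all 4 clusters. In groups 9 to 13, 11 of 16 genes were detected and the median was 2.06 FPKM. In groups 5 to 8, 6 of 11 were detected with a median of 1.07 FPKM, and in groups 1 to 4, 3 of 12 with a median of 0.399 FPKM. The posterior groups were not uniform: HOXC12 (0.365 FPKM) and HOXD12 (0.266 FPKM) were below detection beside HOXC13 and HOXD13, and HOXA9 (0.265 FPKM, or 1.1 FPKM by transcript length) and HOXC9 (0.418 FPKM) were below it while HOXB9 was high. Of the 39 genes 25 share exon bases with another annotated gene, and the strand of the reads was not given in the sources used here. Noncoding neighbours also had counts: HOTTIP, beside HOXA13, at 8.07 FPKM and HOTAIR, in the HOXC cluster, at 1.59 FPKM. HOTTIP shares exon bases with HOXA13, and without strand the reads in those bases cannot be told apart.

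**Figure D4:**
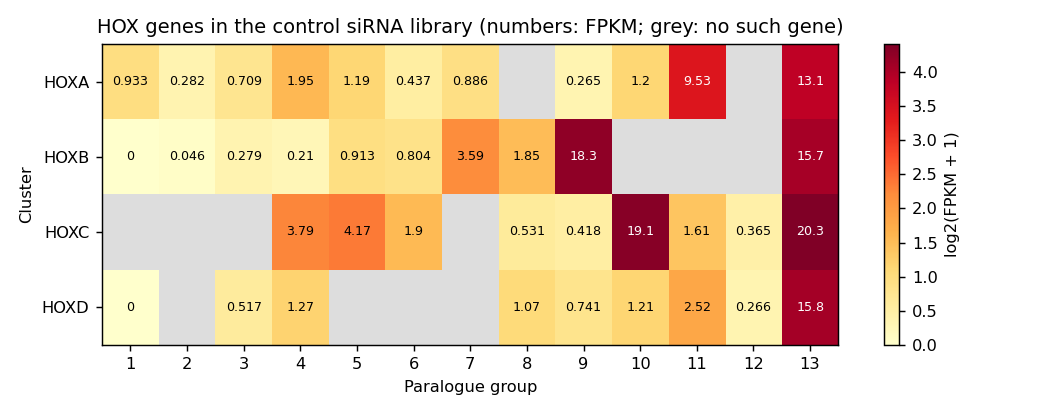
Deposited FPKM of the 39 HOX genes by cluster (rows) and paralogue group (columns), coloured on the log2(FPKM + 1) scale, with grey where the human genome has no such gene. The column of group 13 holds 13.1 to 20.3 FPKM in all 4 clusters.

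Other homeobox and developmental factors were detected in 35 of 68. MSX2 (69.7 FPKM) and MSX1 (37.9 FPKM), known from limb buds and the neural crest, led, with DLX3 at 27.2 FPKM and the hindlimb factor PITX1 at 17.8 FPKM. SIX2, PBX2 and DLX2 stood at 15.9, 13.7 and 9.79 FPKM, and LHX9 at 8.85 FPKM. EOMES, MEOX2, HAND1, HAND2 and SIX3 had 0 counts.

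Stress and AP-1 factors were detected in 28 of 34. ATF4, the effector of the integrated stress response, stood at 173 FPKM (169 to 176), JUND at 157 FPKM, CEBPB at 114 FPKM and JUNB at 102 FPKM. CEBPG (22.9 FPKM), JUN (20.4 FPKM), XBP1 (17.4 FPKM) and CEBPA (15 FPKM) followed. FOS stood at 1.39 FPKM, and FOSL1 had 7 counts.

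Nuclear receptors were detected in 21 of 48. The orphan receptor NR2F6 stood at 68.3 FPKM, the clock repressor NR1D1 at 18.6 FPKM, ESRRA at 17.8 FPKM, the retinoid receptor RARG at 16.6 FPKM and THRA at 13.6 FPKM. The steroid receptors ESR1 and PGR had 0 counts. SOX genes were detected in 6 of 19, led by SOX12 (47 FPKM) and SOX4 (33.8 FPKM), with 7 at 0 counts.

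KLF and SP genes were detected in 17 of 26, led by KLF16 (35.5 FPKM) and the limb factor SP8 (10.6 FPKM). Forkhead genes were detected in 19 of 41, led by FOXO6 (22.3 FPKM), FOXD1 (17.7 FPKM), the proliferation factor FOXM1 (17.7 FPKM) and FOXF1 (13.4 FPKM), a mesenchymal regulator of the gut wall. ETS genes were detected in 11 of 27, with ELK1 highest at 12.9 FPKM, and the epithelial ETS factors EHF and ELF5 had 0 counts. Of the MYC and E2F group 20 of 24 were detected: MYBL2 at 71.5 FPKM, MYC at 33.4 FPKM and E2F1 at 15.1 FPKM. MYC stood 46.6 times above MYCN (31.8 to 71.5), or 169 times by transcript length.

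The genes that the study silenced elsewhere were present in this control. YAP1, the Hippo pathway coactivator, stood at 5.89 FPKM (5.5 to 6.29) and 16.1 FPKM by transcript length. IRF3, the factor that induces type I interferon, stood at 3.55 FPKM (3.29 to 3.83) and 33.6 FPKM by transcript length. IRF3 shares exon bases with its neighbour BCL2L12, so part of its count is uncertain. Among 22 Hippo genes 16 were detected: the DNA-binding partners TEAD3 (17.3 FPKM), TEAD2 (10 FPKM) and TEAD4 (9.68 FPKM), and the scaffold AMOT (13.4 FPKM). TEAD1 stood at 0.864 FPKM (5.87 FPKM by transcript length), 0.0892 times the level of TEAD4 (0.0767 to 0.104), or 0.23 times by transcript length. The paralogue WWTR1 stood 0.479 times YAP1 on deposited FPKM and 1.07 times by transcript length. Of 23 genes described as YAP targets 17 were detected, with IGFBP3 at 19.2 FPKM, CYR61 at 6.15 FPKM and CTGF at 1.5 FPKM (49 counts), and ANKRD1 at 0 counts.

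Innate immune sensing was thinly represented. Of 25 sensors and adaptors 7 were detected: MAVS (7.26 FPKM), EIF2AK2 (3.66 FPKM), TMEM173, which encodes STING (2.32 FPKM), TRAF3, TICAM1, IKBKE and TRAF6. All but EIF2AK2 are adaptors or signal carriers rather than direct sensors of nucleic acid. MB21D1 (cGAS), IFIH1, AIM2, ZBP1, TLR7 and TLR8 had 0 counts, and TBK1, the kinase that activates IRF3, stood at 0.822 FPKM, or 1.54 FPKM by transcript length. By transcript length 10 of 25 passed 1 FPKM.

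The IRF, STAT and NF-kappaB factors were detected in 12 of 21. NFKB2 led at 39.5 FPKM, followed by STAT5B (10.1 FPKM), STAT3 (7.98 FPKM), STAT6 (7.9 FPKM) and STAT2 (6.82 FPKM). IRF3 stood 37.2 times above IRF7 (21.1 to 72.3) or 76.4 times by transcript length. IRF7 had 12 counts and IRF5 had 0 counts. Interferon-stimulated genes were detected in 14 of 33. The membrane restriction factors IFITM3 (107 FPKM) and BST2 (62.8 FPKM) led, with IFITM2 (21.6 FPKM), TRIM25 (16.5 FPKM) and IFITM1 (14.9 FPKM). The IFITM genes are close copies, and IFITM1 and IFITM2 share exon bases, so the split between them is uncertain. ISG15 stood at 8.42 FPKM, MX1 at 0.177 FPKM and RSAD2 at 6 counts, and IFNB1 had 0 counts.

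Antigen-presentation genes were detected in 25 of 36. CALR, a chaperone of class I assembly, stood at 268 FPKM, HLA-E at 91.5 FPKM, HLA-B at 38 FPKM and B2M at 28.4 FPKM (358 FPKM by transcript length). The class II genes were at or below 1.0 FPKM, apart from the invariant chain CD74 at 1.02 FPKM. CIITA, the class II activator, had 30 counts. The checkpoint ligand CD274 (PD-L1) had 12 counts and PDCD1LG2 had 0. HLA levels from a single reference sequence depend on how closely the alleles of the cells match it, which was not tested.

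Proliferation genes were detected in 29 of 30, with a median of 25.2 FPKM. TUBA1B stood at 299 FPKM, the mitotic activator CDC20 at 165 FPKM, the spindle factor TPX2 at 87.3 FPKM and UBE2C at 82 FPKM. PCNA, the replication clamp, had 60.6 FPKM, and BIRC5 had 35.5 FPKM. MKI67 stood at 5.02 FPKM. The undetected member was the kinetochore motor CENPE at 0.187 FPKM (31 counts), whose transcripts hold 35.7% G and C. Cyclins and their kinases were detected in 16 of 20, with CCNB1 highest at 76.5 FPKM. CDK4 stood 29.4 times above CDK6 (24.4 to 35.6), or 64.2 times by transcript length. CCND2 (28.9 FPKM) and CCND1 (25.7 FPKM) were close, with a ratio of CCND1 to CCND2 of 0.891, or 2.16 by transcript length.

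Tumour suppressors and common cancer genes were detected in 25 of 36. The GTPase RHOA, mutated in diffuse gastric cancer, stood at 121 FPKM. CDKN2A, which encodes the inhibitors p16 and ARF, stood at 33.5 FPKM (4088 counts), 7.42 times above CDKN2B (6.67 to 8.27) or 32.5 times by transcript length. CDKN1A (p21) stood at 29.7 FPKM, alpha-catenin CTNNA1 at 21.3 FPKM and CDKN1B at 20.5 FPKM. Below detection were APC (47 counts), BRCA2 (16 counts), ATM (150 counts) and MDM2 (108 counts). By transcript length ATM and MDM2 stood at 18.3 and 8.69 FPKM. Short annotated transcripts set the length used for both, so these values may be too high for the full-length messages. Of the whole list, 32 passed 1 FPKM by transcript length.

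Apoptosis genes were detected in 28 of 39. BIRC5, cytochrome c (CYCS, 33.9 FPKM), the adaptor FADD (21.7 FPKM), the effector BAK1 (15.4 FPKM) and BAD (13.7 FPKM) led. Of the survival proteins MCL1 stood at 10.1 FPKM and BCL2L1 at 7.59 FPKM, 74 and 55.5 times above BCL2 (51.9 to 109 and 38.8 to 82.3). BCL2 had 31 counts. The necroptosis and pyroptosis genes MLKL (4 counts), RIPK3 (4 counts) and GSDMD (9 counts) were below detection.

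Glycolytic enzymes were among the most abundant messages. Of 33 glycolysis and glucose-transport genes 21 were detected, 9 of them at or above 100 FPKM, and the list held 3.17% of all counts. After GAPDH and ENO1 came PGK1 (319 FPKM), PGAM1 (280 FPKM), LDHB (229 FPKM), TPI1 (177 FPKM), ALDOA (153 FPKM) and PKM (125 FPKM). LDHA stood at 71.7 FPKM, 0.313 times LDHB (0.306 to 0.321), or 0.895 times by transcript length. HK2, the hexokinase of many tumours, stood at 49.7 FPKM and HK1 at 16.3 FPKM, a ratio of HK1 to HK2 of 0.327, or 0.665 by transcript length. The liver enzyme PKLR, the germ-line enzymes PGK2 and LDHC and the transporter SLC2A2 had 0 counts. SLC2A1 stood 2.61 times above SLC2A3 (2.47 to 2.76).

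In the citric acid cycle and its entry 26 of 27 genes were detected, led by MDH2 (92.6 FPKM), ACLY (76.1 FPKM), FH (59.6 FPKM) and IDH2 (56.5 FPKM). The exception was the testis form PDHA2, with 0 counts. All 76 nuclear genes of the respiratory chain were detected, from NDUFA5 at 1.23 FPKM to COX8A at 517 FPKM, with a median of 27.1 FPKM. NDUFS5 stood at 373 FPKM, ATP5B at 290 FPKM and NDUFB9 at 249 FPKM. None of 5 tissue-specific forms of cytochrome oxidase subunits was detected on deposited FPKM, and 1 was by transcript length. COX7A2 stood 157 times above its muscle form COX7A1 (67.2 to 484), or 524 times by transcript length. COX4I1 stood 53.2 times above COX4I2 (22.8 to 164), or 879 times by transcript length. Both low partners had 5 counts.

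The proteasome degrades tagged proteins. All 14 core proteasome genes were detected, from PSMA4 at 8.04 FPKM to PSMB3 at 79.8 FPKM. The interferon-inducible subunits were lower than the constitutive ones they replace: PSMB5 stood 5.78 times above PSMB8 (5.24 to 6.4), PSMB6 3.83 times above PSMB9 (3.48 to 4.22, and 2.16 times by transcript length) and PSMB7 17.2 times above PSMB10 (14.9 to 19.9). Chaperones were detected in 36 of 39. HSP90AB1 stood 11.5 times above HSP90AA1 (11.2 to 11.8), or 6.63 times by transcript length. The small heat shock protein HSPB1 had 321 FPKM, and PPIB, PDIA4 and HSPA5, all of the endoplasmic reticulum, had 189, 167 and 157 FPKM. The collagen chaperone SERPINH1 stood at 110 FPKM. The stress-inducible HSPA6 was below detection at 0.393 FPKM.

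Cytoskeletal genes were detected in 41 of 43. After TMSB10, VIM and TUBB came TUBA1B, PFN1 (234 FPKM), ACTB (205 FPKM), TUBB4B (175 FPKM) and TAGLN2 (143 FPKM). TMSB10 stood 49.2 times above its X-linked paralogue TMSB4X (46.2 to 52.3), or 11.8 times by transcript length. TPM2 stood 9.48 times above TPM1 (8.49 to 10.6), or 2.35 times by transcript length. MYH9 stood 4.46 times above MYH10 (4.28 to 4.65). The undetected members were TAGLN and TUBB6 (22 counts), and TUBB6 stood at 1.75 FPKM by transcript length.

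**Figure D5:**
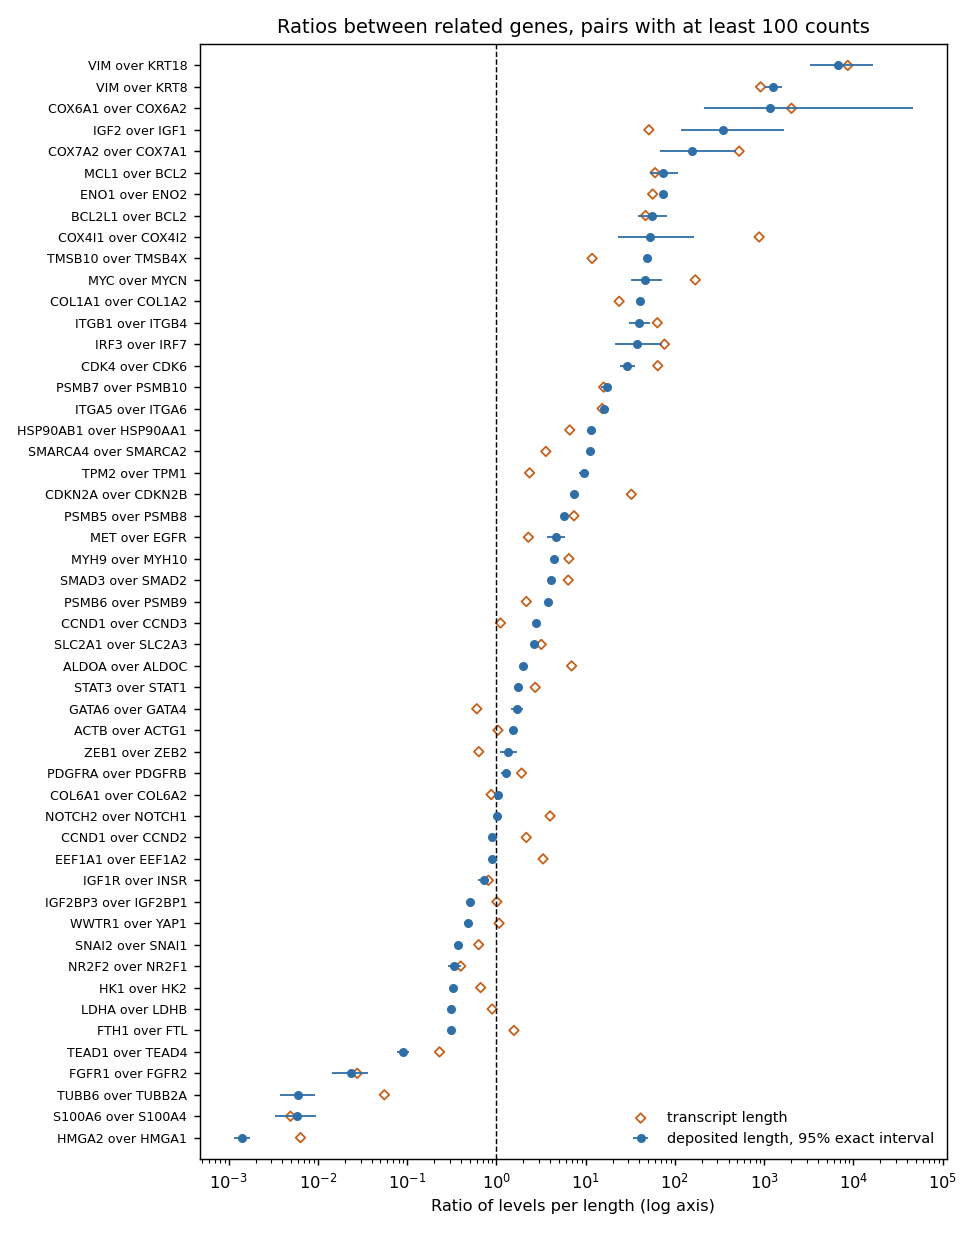
Ratio of levels per length (horizontal log axis) for the 51 pairs of related genes with at least 100 counts together (rows), with filled points and bars for the deposited length and its 95% exact binomial interval and open diamonds for the transcript length. VIM over KRT8 is 1269 and 912 on these scales, whereas pairs near the dashed line at 1, such as GATA6 over GATA4, fall on opposite sides of it.

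Galectins, S100 proteins and annexins were detected in 16 of 29. S100A11 (378 FPKM) and S100A10 (204 FPKM) followed LGALS1, and ANXA5 stood at 65.6 FPKM. The epithelial and gut members LGALS4, ANXA10 and S100A14 had 2 to 4 counts, and S100P had 0. Of 36 iron and redox genes 28 were detected. FTL stood highest, with the peroxiredoxins PRDX5 (267 FPKM) and PRDX1 (202 FPKM), thioredoxin TXN (211 FPKM) and GSTP1 (131 FPKM). FTH1 stood 0.309 times FTL on deposited FPKM and 1.57 times by transcript length. The NRF2-linked reductases AKR1C1 and AKR1B10 had 15 and 0 counts, and NQO1 stood at 59.2 FPKM.

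Chromatin remodelling genes of the SWI/SNF complexes were detected in 20 of 23. The ATPase SMARCA4 stood at 36.5 FPKM, 11.3 times above its alternative SMARCA2 (10.6 to 12.1), or 3.58 times by transcript length. SMARCD2 had 30.1 FPKM, SMARCB1 had 20.7 FPKM, and ARID1A, often mutated in gastric cancer, had 3.51 FPKM. PBRM1 (0.578 FPKM, or 1.68 FPKM by transcript length) and the neural subunits DPF3 (0.31 FPKM) and ACTL6B (0 counts) were below detection. TERT, the telomerase enzyme, had 23 counts. Its RNA template TERC was listed at 0, as were RMRP and RPPH1, RNAs that every cell uses, so no level is read from these zeros. The cytidine deaminases APOBEC3C and APOBEC3B stood at 27.6 and 20.1 FPKM.

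Cancer-testis antigens, which adult tissues other than testis rarely express, were detected in 12 of 22, a list median of 5.18 FPKM. CTAG2 stood at 108 FPKM (104 to 112), XAGE1A at 50.2 FPKM, CTAG1B (NY-ESO-1) at 39.7 FPKM and MAGEB2 at 31.4 FPKM. MAGEA3, MAGEA4, MAGEA12 and MAGEA1 stood between 19.6 and 26.1 FPKM, and MAGEA10 was the lowest detected at 4.09 FPKM. The list divided sharply, since 8 members had 0 counts, MAGEC1, MAGEC2, PAGE1 and SSX1 among them. CTAG1B, XAGE1A and several MAGEA genes have near-identical copies on the X chromosome, so the level of the family is better defined than that of each gene. Of 17 oncofetal and imprinted genes 8 were detected. HMGA1 stood at 262 FPKM, whereas HMGA2 (0.367 FPKM, or 3.89 FPKM by transcript length) stood at 0.0014 times that level (0.00114 to 0.00171), or 0.00637 times by transcript length. IGF2BP1, IGF2BP2 and IGF2BP3 stood at 6.49, 3.87 and 3.28 FPKM, and H19, DLK1, MEG3, PEG3 and MEST had 0 counts.

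Long noncoding RNAs were led by AC021224.1 at 186 FPKM and MIF-AS1 at 165 FPKM. MIF-AS1 lies against MIF (355 FPKM), and without strand its reads cannot be told from those of MIF. The snoRNA host genes LRRC75A-AS1 (96.1 FPKM), ZFAS1 (95.7 FPKM), GAS5 (65 FPKM) and SNHG6 (62.8 FPKM) followed. GAS5 stood at 1273 FPKM by transcript length. MALAT1 and NEAT1, long nuclear RNAs, stood at 2.03 and 1.66 FPKM, or 57.9 and 13.8 FPKM by transcript length. The median annotated transcript of each is far shorter than the gene, so the transcript-length values are too high for the full-length RNAs. UCA1, H19 and MIR31HG had 0 counts.

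Gene families taken by symbol, chosen after the values were seen, marked the outer limits of the repertoire. All 77 mitochondrial ribosomal protein genes were detected, and 48 of 73 RAB GTPases. Solute carriers were detected in 164 of 373, led by the ADP/ATP exchanger SLC25A5 (360 FPKM) and the amino-acid transporter SLC7A5 (209 FPKM). Zinc finger ZNF genes were detected in 141 of 513 and potassium channel genes in 16 of 96. Of 55 keratins, KRT10 was detected, at 24.5 FPKM, and it shares exon bases with its neighbour TMEM99. Of 380 olfactory receptors 1 was detected, OR1F1 at 1.07 FPKM, and 368 had 0 counts. None of 94 keratin-associated proteins, 37 beta-defensins, 24 bitter taste receptors or 12 CEACAM genes was detected.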

How the data were processed

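RNA of the control siRNA culture was sequenced on an Illumina instrument, per the labels, in 1 library. The authors' deposited table gives FPKM values and raw counts per gene and library, per the file headers. Alignment used TopHat2 2.0.9 and the genome was hg38, per the submitters' processing notes. Not given in the sources used here: counter, annotation release, strand and treatment of multiply mapped reads. The authors' gene length was inferred from the deposited FPKM and count of each gene. For this, the library of the study with most counts for the gene was used, knockdown libraries included, since the length is a constant of the gene.

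Gene classes, transcript lengths and G and C content came from GENCODE release 29 (50111 of 50868 genes matched by ID). Where a symbol occurred more than once (373 repeats), the annotated, protein-coding row with the lowest ID was used. Intervals are exact Poisson for levels and exact Clopper-Pearson for ratios, at 95%. They were checked on simulated Poisson counts, which checks the calculation and not the error of these data. Python 3.11.15, scipy 1.17.1 and pandas 2.3.3 were used.

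A total of 68 gene lists and 57 gene pairs were used. The library, lists and pairs were chosen with earlier results of these data known. Genes were named by rule: the 30 of highest FPKM with at least 100 counts, the 15 of highest count, 15 long noncoding RNAs, and from each list up to 8 highest, the lowest detected and up to 6 undetected members, plus all genes of pairs. Others were named after their values were seen. Genes that could tell sex are not reported. Some members of the lists are counted but not reported here by name.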

Additional observations from a re-analysis of the deposited data

How the results depend on the processing

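Counts of detected genes depended on the level chosen. The 11498 detected genes fell to 5415 at 5 FPKM. Over all genes the number rose to 14086 at 0.5 FPKM, 16851 at 1 TPM and 13795 by transcript length. The marker counts at these settings are to be read beside that rise, and the share of coding genes passing them is not given. Epithelial markers detected, 9 at 1 FPKM, numbered 15 at 0.5 FPKM, 3 at 5 FPKM, 20 at 1 TPM (equal to 0.244 FPKM here), 3 among the 20 members that overlap no other gene, and 16 by transcript length. Mesenchymal markers detected, 20 at 1 FPKM, numbered 7 among the 11 members that overlap no other gene, a smaller list. Markers of other lineages, 13 at 1 FPKM, numbered 4 at 5 FPKM, 29 at 1 TPM, 4 among 45 members that overlap no other gene, and 25 by transcript length. The share of the 100 most abundant genes, 41.2% of summed FPKM, was 21.9% of counts, 38.5% without mitochondrial genes, 31.6% over coding genes, 41.3% without small RNAs and lengths under 200 bases, 32% by transcript length and 30.7% without processed pseudogenes.

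The transcript-length and pseudogene forms, and the 5 FPKM level for the other lists, were chosen after seeing the data. Of 57 pairs, 8 with a deposited interval that excludes 1 fell on the other side of 1 by transcript length: ZEB1 over ZEB2 (0.634), COL6A1 over COL6A2 (0.873), WWTR1 over YAP1 (1.07), EEF1A1 over EEF1A2 (3.33, and 12.2 with pseudogenes), FTH1 over FTL (1.57, and 1.88 with pseudogenes), CCND1 over CCND2 (2.16), GATA6 over GATA4 (0.602) and IGF2BP3 over IGF2BP1 (1.01, with an interval of 0.915 to 1.12). CDH2 over CDH1, whose interval includes 1 (0.455 to 7.41), went from 1.88 to 0.682. The length itself causes these reversals, since the counts are the same. Of 66 other lists, 57 kept a count of detected members within 1.5 times by transcript length, and 30 did at 5 FPKM. No paired analysis was possible because 1 library was described.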
